A study of Homo sapiens with 16 samples.

Results

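The 44 genes described here encode the DNA replication machinery together with genes of the E2F programme that accompanies S phase. They were chosen by symbol. Each was read from the probe set of highest mean signal among those that the platform annotation assigns to 1 gene. All 44 had such a probe set, among 19775 genes measured, and all 44 passed the filter on low signals that left 12305 genes for testing.

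RNA came from 8 human B-cell lines that the series groups as mantle cell lymphoma. Each line was kept for 20 hours in fresh medium with 5 uM AFN700, which blocks the NF-kB-activating kinase IKKbeta, or with 0.025% DMSO as solvent control, and 1 array was run for each line and treatment, 16 in all. A label on response to "stn/ibrutinib" reads sensitive for REC-1 and SP49. It reads insensitive for JVM-13, JVM-2, Maver-1, Z-138, GRANTA-519 and HBL-2. GRANTA-519 grew in DMEM and the others in RPMI, all with 10% FBS. The JVM-13 array with inhibitor carries AFN700 in its title and AFN701 in its treatment field, and it is treated here as the AFN700 array. The line is the replicate here, so a value within 1 line carries no error of its own, and precision is limited by having 1 array for each.

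Before S phase, the origin recognition complex with CDC6 and CDT1 loads the MCM2-7 helicase onto DNA, and geminin (GMNN) restrains CDT1 afterwards. The kinase CDC7 with its activator DBF4, together with MCM10, CDC45 and the GINS complex, turns the loaded helicase on. Polymerase alpha-primase lays primers, the RFC complex loads the PCNA clamp, and polymerases delta and epsilon extend the new strands. E2F transcription factors, held back by the RB protein until cyclin-dependent kinases release them, drive many of these genes, and cyclin E is both their target and a partner of the kinase that releases them. Cyclin D1, which the hallmark translocation of mantle cell lymphoma places under an immunoglobulin enhancer, acts on RB at the same step.

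E2F motifs were more frequent in the promoters of the members than in those of all genes. The set was chosen as replication and E2F genes, so this frequency is a description and no independent result. RefSeq promoter windows (GRCh38.p14, 250 bases before to 50 after the start) were at hand for 39 of the 44 genes. MCM4, MCM5, RPA2, RPA3 and CCNE2 had no entry. A window was searched on both strands for the 8-base E2F motifs TTTCCCGC, TTTGGCGC and TTTCGCGC. At least 1 of the 3 was present in 19 of 39 members (48.7%), against 763 of 27305 windows of all genes (2.79%) and 463 of 10050 windows of the genes tested (4.61%). TTTCCCGC was found in 9 members, TTTGGCGC in 8 and TTTCGCGC in 5. The 160 bases that end just before the start are printed for 6 members whose values are given later, with the E2F motif in capitals, as the gene's own strand reads. A motif on the opposite strand therefore appears as GCGGGAAA. In MCM6 the capitals cover overlapping matches on both strands at each of its sites.
E2F1, chr20:33686386-33686545, minus strand: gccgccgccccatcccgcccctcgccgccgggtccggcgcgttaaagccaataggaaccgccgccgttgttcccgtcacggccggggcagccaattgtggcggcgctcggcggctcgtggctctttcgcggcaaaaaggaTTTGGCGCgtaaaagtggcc
E2F2, chr1:23531234-23531393, minus strand: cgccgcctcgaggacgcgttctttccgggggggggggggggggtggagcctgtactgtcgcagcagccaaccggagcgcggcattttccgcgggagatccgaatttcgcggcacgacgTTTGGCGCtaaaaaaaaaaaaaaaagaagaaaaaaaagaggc
MCM6, chr2:135876444-135876603, minus strand: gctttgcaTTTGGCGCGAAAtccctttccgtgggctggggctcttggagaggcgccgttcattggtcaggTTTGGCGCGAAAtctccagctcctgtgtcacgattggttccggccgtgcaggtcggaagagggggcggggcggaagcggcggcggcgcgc
CDT1, chr16:88803629-88803788, plus strand: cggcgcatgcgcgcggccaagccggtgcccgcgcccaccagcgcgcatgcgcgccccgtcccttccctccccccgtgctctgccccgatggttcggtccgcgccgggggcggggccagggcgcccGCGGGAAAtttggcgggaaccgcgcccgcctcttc
PCNA, chr20:5126623-5126782, minus strand: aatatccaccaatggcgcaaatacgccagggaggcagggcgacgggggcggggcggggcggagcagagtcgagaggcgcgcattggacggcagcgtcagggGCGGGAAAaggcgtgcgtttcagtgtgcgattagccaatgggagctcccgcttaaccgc
POLA2, chr11:65261802-65261961, plus strand: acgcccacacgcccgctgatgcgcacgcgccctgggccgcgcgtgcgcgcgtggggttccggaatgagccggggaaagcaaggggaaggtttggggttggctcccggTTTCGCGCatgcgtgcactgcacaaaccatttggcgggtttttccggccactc

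Other promoter letters set the members apart less. The CCAAT box was present in 20 of 39 members (51.3%), in 35.7% of all windows and in 37.1% of windows of the genes tested. The GC box GGGCGG was present in 27 (69.2%), close to its share among the genes tested (68.7%) and above that in all windows (44.6%). The NF-kB consensus was present in 2 members, MCM7 and RRM2 (5.13%), against 5.72% of all windows and 6.62% for the genes tested. The CHR element TTTGAA, known from late cell cycle genes, was present in DBF4 and RRM1 (5.13%). Its share was 15.4% in all windows and 10.2% for the genes tested. The windows of CHEK1, CDC45 and RRM2 held none of the 3 E2F motifs, which says only that those letters are not in that stretch.

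The arrays carried B-cell transcripts throughout. The 6 measured B-cell marker genes summed to between 9220 and 15800 intensity units on every array, and 5 myeloid marker genes to between 4.6 and 42.3. Sums over 4 T-cell genes ran from 5.3 to 372, highest in REC-1, over 5 fibroblast genes from 12.3 to 631, highest in GRANTA-519, and over 4 epithelial genes from 20.2 to 385, highest in Maver-1. The mantle cell lymphoma gene SOX11 read 0.1 in JVM-2 and 1.4 in JVM-13 with DMSO, and CCND1, which encodes cyclin D1, read 78.7 and 4.8, against 394.4 to 2328.5 for CCND1 in the 6 other lines. SOX11 was thus near 0 in JVM-2 and JVM-13, and CCND1 was near 0 in JVM-13. On the JVM-13 array with DMSO the median log2 signal was lowest, at 7.248 against 7.815 to 8.022 on the other 15 arrays. The actin 3'/5' signal ratio, a sign of RNA integrity, differed most between treatments in HBL-2, at 1.898 with DMSO and 16.678 with AFN700. It was highest in Maver-1, at 10.326 and 18.832, and lay between 2.009 and 6.395 in the 6 other lines. Counts of members called are given with and without JVM-13 and HBL-2, and so are the means of some genes. Other results include both lines. The part that RNA integrity has in the results was not tested.

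Before inhibition, the 44 genes were at similar levels in 7 lines and lower in JVM-13. Their median DMSO intensity was 1170 in REC-1, 1210 in SP49, 959 in HBL-2, 849 in GRANTA-519, 1070 in Z-138, then 910 in Maver-1 and 958 in JVM-2. It was 536 in JVM-13. With AFN700 the medians were 877 in REC-1, 1080 in SP49, 908 in HBL-2, 509 in GRANTA-519, 876 in Z-138, then 854 in Maver-1, 888 in JVM-2 and 1030 in JVM-13. GRANTA-519 had the lowest median on the AFN700 arrays and JVM-13 the lowest on the DMSO arrays. In bulk RNA such a difference can come from fewer cells in S phase or from less RNA per cell, which cannot be told apart here. The JVM-13 DMSO array also had the lowest median log2 signal over the genes tested (7.248). The part of this array-wide difference in the members' level was not tested.

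The first comparison asked whether inhibition of IKKbeta moved replication genes over the 8 lines. Limma called 0 of 44 members at an adjusted p under 0.05, and 0 of 12305 genes (0.0%). At an unadjusted p under 0.05 there were 0 members, against 1006 genes (8.18%). The median of the members' mean log2 differences was -0.0042, and that of all genes was 0.06, with 22 members below 0. The member of smallest p was DBF4, with a mean log2 difference of -0.20 ± 0.10 (SE, n = 8 lines, limma adjusted p = 0.627). GMNN followed at -0.14 ± 0.07 (limma adjusted p = 0.632), then E2F2 at -0.22 ± 0.12 (0.639), MCM10 at -0.26 ± 0.18 (0.712), LIG1 at 0.29 ± 0.22 (0.722) and CCNE1 at -0.22 ± 0.18 (0.733). With each array centred on its median, 0 members and 0 genes passed (0.0%). DBF4, MCM10, POLE2 and E2F2 then had an unadjusted p under 0.05 on the lower side, 4 members against 4.01% of genes, and the members' median was -0.10. Quantile normalization gave 4 members on that side as well, against 3.71% of genes.

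**Figure D1:**
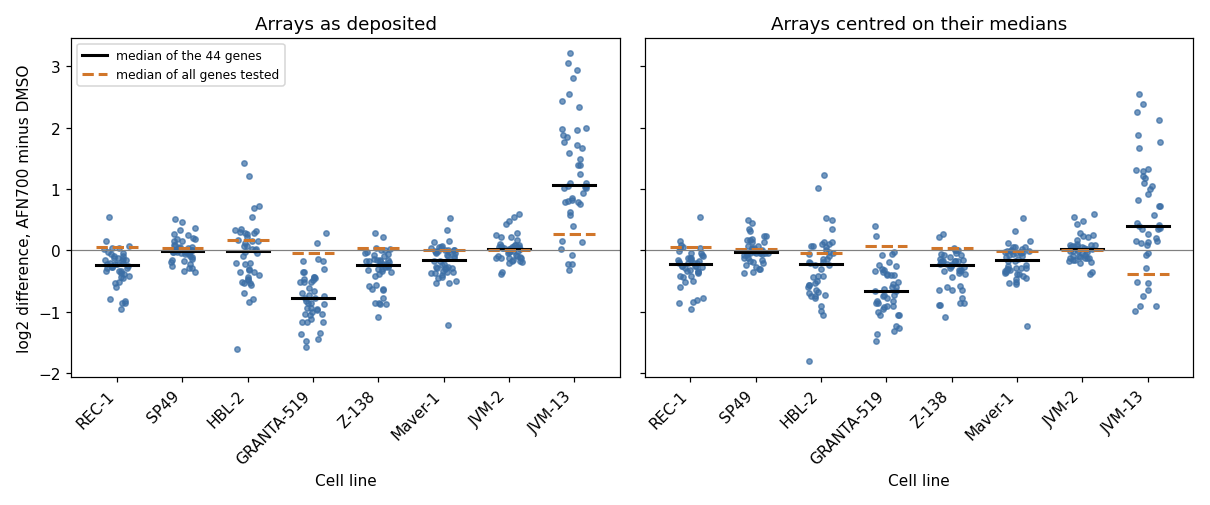
Each point is 1 of the 44 genes, plotted by cell line (x axis) against its log2 difference between the AFN700 and the DMSO array (y axis), with arrays as deposited on the left and centred on their medians on the right. Black bars are the medians of the 44 genes and dashed orange bars those of all genes tested. The genes lie lowest in GRANTA-519 (median -0.78 as deposited, -0.66 centred) and highest in JVM-13 (1.07 and 0.40).

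The mean over lines joined lines that moved in different directions. In GRANTA-519, 42 of 44 members were lower with AFN700 (55.0% of genes were), their median log2 difference was -0.78, and that of all genes was -0.05. In REC-1, 38 members were lower (45.1% of genes) with a median of -0.24. In Z-138, 38 were lower (45.1%) with a median of -0.24. In Maver-1, the line of highest actin ratio, 32 were lower (49.0%) with a median of -0.15. In these 4 lines the members' median was below that of all genes, which lay between -0.05 and 0.05. SP49 had 22 members lower (44.3%), HBL-2 had 22 (39.1%) and JVM-2 had 20 (48.5%), and the medians were -0.0030, -0.01 and 0.02. All genes had medians of 0.04, 0.17 and 0.01 in these lines. The members' median was thus below that of all genes in SP49 and HBL-2 as well. In JVM-13 only 4 of 44 members were lower (38.7% of genes), and the median was 1.07 against 0.27 for all genes. GRANTA-519 and JVM-13 thus lay at opposite ends.

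Differences of at least 2-fold were nearly all in those end lines. GRANTA-519 had 13 members at least 2-fold lower (6.07% of genes). They came from licensing (CDC6, CDT1, MCM2, MCM5), helicase activation (CDC45), the polymerases (POLA2, PRIM1, POLD1, POLE), nucleotide supply (TYMS, TK1) and cyclin E (CCNE1, CCNE2). JVM-13 had 27 members at least 2-fold higher, against 25.7% of genes, and 0 lower. Elsewhere the members past 2-fold were few, namely CDC6 in Z-138 (1 member, 1.06% of genes), CDT1 in Maver-1 (1 member, 1.68%) and POLA2 in HBL-2 (1 member, 4.46%), all lower. CDT1 and MCM5 in HBL-2 were higher (2 members, 9.87% of genes). With their other probe sets CDT1 was at 0.39 and MCM5 at -0.09 in that line. REC-1, SP49 and JVM-2 had 0 members past 2-fold in either direction.

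Scaling shifted JVM-13 more than any other line. With arrays centred, its members' median was 0.40 while that of all genes was -0.39, 10 members were lower (63.7% of genes) and 14 were at least 2-fold higher (11.6%). Quantile normalization left 18 members at least 2-fold higher there (14.7%). In GRANTA-519 centring left 42 members lower (44.2% of genes) and 9 at least 2-fold lower (4.66%), with a median of -0.66. Under centring, 36 members were lower in Maver-1 (50.6%), 31 in HBL-2 (53.1%) and 27 in SP49 (47.3%).

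**Figure D2:**
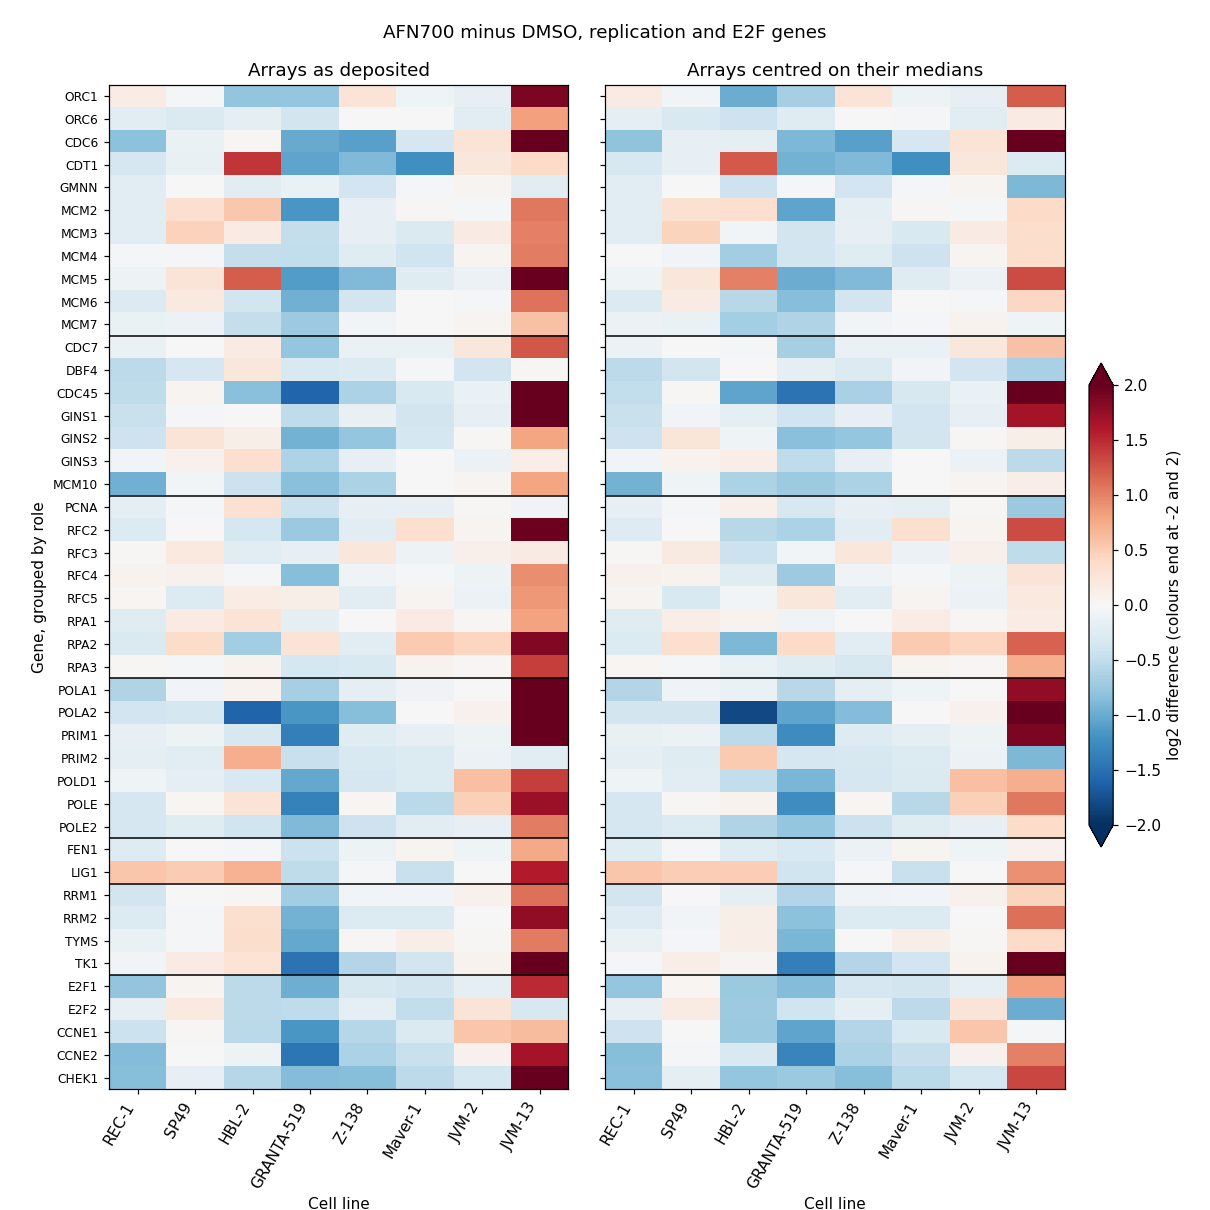
Rows are the 44 genes grouped by role (black lines part the groups), columns the 8 cell lines, and colour the log2 difference between the AFN700 and the DMSO array, blue lower and red higher, with arrays as deposited on the left and centred on the right. GRANTA-519 is blue for 42 of 44 genes and JVM-13 red for 40 as deposited and for 34 centred.

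The 11 licensing genes had median log2 differences of -0.22 in REC-1, -0.03 in SP49, -0.20 in HBL-2, -0.78 in GRANTA-519, -0.24 in Z-138, then -0.09 in Maver-1, 0.05 in JVM-2 and 1.02 in JVM-13. All 11 were lower in GRANTA-519, and 10 were in REC-1. CDC6, the loader of the helicase, read 225.1 with DMSO and 126.0 with AFN700 in REC-1, 341.1 and 310.2 in SP49, 422.8 and 427.8 in HBL-2, 292.2 and 143.2 in GRANTA-519, 546.7 and 255.6 in Z-138, then 473.8 and 375.2 in Maver-1, 201.9 and 245.6 in JVM-2 and 30.7 and 311.3 in JVM-13. The DMSO signal of JVM-13 lay below every other array, while its AFN700 signal lay among those of the other lines. The log2 differences were -0.82, -0.14, 0.02, -1.01, -1.09, -0.33, 0.28 and 3.21 in the same order, the lowest of any member in Z-138 and the highest in JVM-13. Their mean was 0.01 ± 0.38 (SE, n = 8, limma adjusted p = 0.998) and -0.44 ± 0.17 without JVM-13 (n = 7, limma adjusted p = 0.258).

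CDT1, which works beside CDC6, ran from 206.9 to 649.8 on the 8 DMSO arrays and from 97.2 to 839.3 on the AFN700 arrays. The lines split in direction. Its log2 difference was -0.33 in REC-1, -0.15 in SP49, 1.43 in HBL-2, -1.06 in GRANTA-519, -0.88 in Z-138, then -1.22 in Maver-1, 0.22 in JVM-2 and 0.39 in JVM-13, with a mean of -0.20 ± 0.26 (limma adjusted p = 0.850). HBL-2 held the highest and Maver-1 the lowest value. The mean of CDT1 was -0.28 ± 0.25 without JVM-13 (limma adjusted p = 0.629). Without HBL-2 as well it was -0.57 ± 0.17 (limma adjusted p = 0.129). A second probe set of CDT1 gave 0.39 in HBL-2 and -0.38 in Maver-1, the same directions at smaller size.

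Geminin (GMNN), the inhibitor of CDT1, ran from 1185.1 in GRANTA-519 to 2267.9 in REC-1 with DMSO, and JVM-13 at 2151.4 was among the high lines. Its log2 differences were small, at -0.22 in REC-1, 0.01 in SP49, -0.21 in HBL-2, -0.14 in GRANTA-519, -0.38 in Z-138, then -0.03 in Maver-1, 0.06 in JVM-2 and -0.23 in JVM-13. Unlike most members it was lower in JVM-13. Of the helicase subunits, MCM2 and MCM5 had the lowest values in GRANTA-519, at -1.16 and -1.12. MCM6, with its pair of E2F sites, read 1704.0 and 873.2 in GRANTA-519, a log2 difference of -0.96, and 925.6 and 1969.9 in JVM-13, a difference of 1.09. A second probe set of MCM6 gave -0.96 in GRANTA-519 and -0.19 in JVM-13, the latter opposite in sign. ORC1, the largest subunit of the origin recognition complex, was 0.28 in Z-138, the highest member there.

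The 7 genes of helicase activation were all lower in REC-1, GRANTA-519 and Z-138, with medians of -0.45, -0.78 and -0.27. The medians were 0.01 in SP49, 0.12 in HBL-2, -0.13 in Maver-1, -0.12 in JVM-2 and 0.79 in JVM-13. CDC45, which joins MCM and GINS to form the active helicase, read 611.8 and 428.9 in REC-1, 769.5 and 799.1 in SP49, 469.9 and 260.3 in HBL-2, 539.4 and 178.0 in GRANTA-519, 540.1 and 344.7 in Z-138, then 565.6 and 456.7 in Maver-1, 584.9 and 532.8 in JVM-2 and 102.0 and 728.1 in JVM-13, DMSO first. The GRANTA-519 signal with AFN700 and the JVM-13 signal with DMSO stood below all others. Its log2 differences were -0.51, 0.05, -0.84, -1.58, -0.64, -0.31, -0.13 and 2.80 in that order. The mean was -0.15 ± 0.35 (SE, n = 8, limma adjusted p = 0.930) and -0.57 ± 0.16 without JVM-13 (n = 7, limma adjusted p = 0.166).

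DBF4, the activator of the CDC7 kinase, ran from 847.6 to 1533.3 with DMSO and from 684.8 to 1272.3 with AFN700, so the groups overlapped. It was lower in 6 of 8 lines, at -0.53 in REC-1, -0.34 in SP49, -0.31 in GRANTA-519, -0.27 in Z-138, then -0.04 in Maver-1 and -0.39 in JVM-2, and at 0.22 in HBL-2 and 0.02 in JVM-13. It was the lowest member in JVM-2. MCM10, a scaffold of the activated origin, ran from 287.2 to 962.9 with DMSO and from 295.7 to 829.7 with AFN700. Its log2 difference was -0.96 in REC-1, the lowest member there, -0.06 in SP49, -0.43 in HBL-2, -0.83 in GRANTA-519, -0.63 in Z-138, then 0.01 in Maver-1, 0.06 in JVM-2 and 0.79 in JVM-13. Of the GINS subunits, GINS2 was at -0.94 in GRANTA-519 and -0.77 in Z-138, while GINS1 was at 2.34 in JVM-13.

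The 8 clamp, clamp loader and single-strand binding genes had the group median nearest 0 in REC-1 and GRANTA-519. Their median log2 differences were -0.08 in REC-1, 0.05 in SP49, 0.02 in HBL-2, -0.27 in GRANTA-519, -0.19 in Z-138, then 0.06 in Maver-1, 0.02 in JVM-2 and 0.89 in JVM-13. PCNA, the sliding clamp, ran from 1663.1 to 3406.9 with DMSO and from 1400.5 to 3236.2 with AFN700. Its log2 differences were -0.18 in REC-1, -0.02 in SP49, 0.30 in HBL-2, -0.43 in GRANTA-519, -0.17 in Z-138, then -0.17 in Maver-1, 0.03 in JVM-2 and -0.07 in JVM-13. PCNA was the gene whose JVM-13 DMSO array was highest of the 8 rather than low.

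RPA2, a subunit of the single-strand binding protein, was higher with AFN700 in 5 of 8 lines. It read 226.7 and 275.6 in GRANTA-519, 365.9 and 529.5 in Maver-1, 416.1 and 560.0 in JVM-2 and 201.3 and 259.2 in SP49, DMSO first, and was the highest member in GRANTA-519 and Maver-1. The log2 differences were -0.29 in REC-1, 0.36 in SP49, -0.70 in HBL-2, 0.28 in GRANTA-519, -0.23 in Z-138, then 0.53 in Maver-1, 0.43 in JVM-2 and 1.85 in JVM-13. Its mean was 0.28 ± 0.23 (limma adjusted p = 0.742) and 0.05 ± 0.15 without JVM-13. RPA1, the large subunit of the same protein, had differences of -0.25, 0.16, 0.28, -0.18, 0.01, 0.16, 0.02 and 0.81 in the same order of lines.

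The loader subunits RFC3 and RFC5 lay between -0.28 and 0.22 in the 7 lines other than JVM-13. RFC3 had differences of 0.02 in REC-1, 0.20 in SP49, -0.22 in HBL-2, -0.17 in GRANTA-519, 0.22 in Z-138, then -0.10 in Maver-1, 0.10 in JVM-2 and 0.16 in JVM-13. RFC5 had 0.04, -0.28, 0.15, 0.12, -0.23, 0.06, -0.12 and 0.86 in the same order. RFC4 was at -0.85 in GRANTA-519 and RFC2 at -0.74 there. These values hold for the probe sets used. Other sets of RFC3 gave -1.13 and 0.20 in GRANTA-519, and in HBL-2 another set of RFC3 gave -1.69 and another of RFC5 -1.77. In JVM-13 the other sets gave 3.35 and 0.17 for RFC3, and 3.15 and 2.52 for RFC5.

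Among the 7 polymerase and primase genes the GRANTA-519 median was -1.03, and all 7 were lower there and in REC-1 (median -0.34). The medians were -0.19 in SP49, -0.30 in HBL-2, -0.31 in Z-138, then -0.23 in Maver-1, -0.01 in JVM-2 and 1.71 in JVM-13. POLA2, the second subunit of polymerase alpha, read 329.6 and 252.0 in REC-1, 341.6 and 266.9 in SP49, 320.6 and 103.7 in HBL-2, 283.9 and 124.8 in GRANTA-519, 252.4 and 138.3 in Z-138, then 228.3 and 228.6 in Maver-1, 345.1 and 368.1 in JVM-2 and 35.7 and 319.5 in JVM-13, DMSO first. Its log2 differences were -0.38, -0.35, -1.60, -1.16, -0.85, 0.0019, 0.09 and 3.05. The value in HBL-2 was the lowest of any member in any line, and a second probe set of POLA2 gave -0.12 there. The mean was -0.15 ± 0.39 (SE, n = 8, limma adjusted p = 0.936), and -0.61 ± 0.19 without JVM-13 (n = 7, limma adjusted p = 0.183). Without HBL-2 as well it was -0.44 ± 0.16 (limma adjusted p = 0.177).

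POLE2 and PRIM1 were lower in all 7 lines other than JVM-13. POLE2, a subunit of polymerase epsilon, had differences of -0.34 in REC-1, -0.25 in SP49, -0.40 in HBL-2, -0.88 in GRANTA-519, -0.42 in Z-138, then -0.23 in Maver-1 and -0.16 in JVM-2, and of 1.03 in JVM-13. PRIM1, the catalytic subunit of primase, ranged from -0.10 to -1.37 in the 7 lines, lowest in GRANTA-519, and was 2.55 in JVM-13. POLD1 and POLE had low signals, with DMSO values of 28.0 to 102.9 and 36.8 to 235.7, and POLD1 was the highest member in JVM-2 at 0.60.

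The genes of Okazaki fragment processing parted. FEN1, the flap endonuclease, lay between -0.43 and 0.06 in the 7 lines other than JVM-13 with the probe set used. A second set of FEN1 gave -1.35 in HBL-2. LIG1, which encodes DNA ligase 1, read 138.8 and 204.1 in REC-1, 152.8 and 219.1 in SP49, 135.1 and 220.5 in HBL-2, 131.7 and 91.2 in GRANTA-519, 175.8 and 171.6 in Z-138, then 184.3 and 135.3 in Maver-1, 160.3 and 158.9 in JVM-2 and 58.6 and 182.9 in JVM-13. It was the highest member in both sensitive lines, at 0.55 and 0.51, and was also at 0.69 in HBL-2 and 1.59 in JVM-13. GRANTA-519 at -0.51, Maver-1 at -0.44, Z-138 at -0.03 and JVM-2 at -0.01 lay on the other side of 0.

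The 4 nucleotide supply genes were all lower in GRANTA-519 (median -0.98) and REC-1 (median -0.21) and all higher in JVM-13 (1.44). In HBL-2 the sets used had a median of 0.30, but the direction there depended on the probe set. The mean over each gene's probe sets was -1.42 for RRM1, -0.14 for RRM2, -0.48 for TYMS and -1.22 for TK1 in that line. RRM2, the small subunit of ribonucleotide reductase, ran from 2106.3 to 3024.3 with DMSO in 7 lines and read 607.7 in JVM-13. Its AFN700 signals ran from 1253.6 in GRANTA-519 to 2998.2 in JVM-2, with JVM-13 at 2081.8 among them. The log2 differences were -0.27 in REC-1, -0.03 in SP49, 0.32 in HBL-2, -0.94 in GRANTA-519, -0.27 in Z-138, then -0.27 in Maver-1, -0.01 in JVM-2 and 1.77 in JVM-13. A second probe set of RRM2 gave -0.59 in HBL-2, opposite in sign, and -1.30 in GRANTA-519. TK1, thymidine kinase of S phase, was lowest in GRANTA-519 at -1.47 and highest in JVM-13 at 2.93, and TYMS, thymidylate synthase, had -1.03 and 1.04 in those lines.

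**Figure D3:**
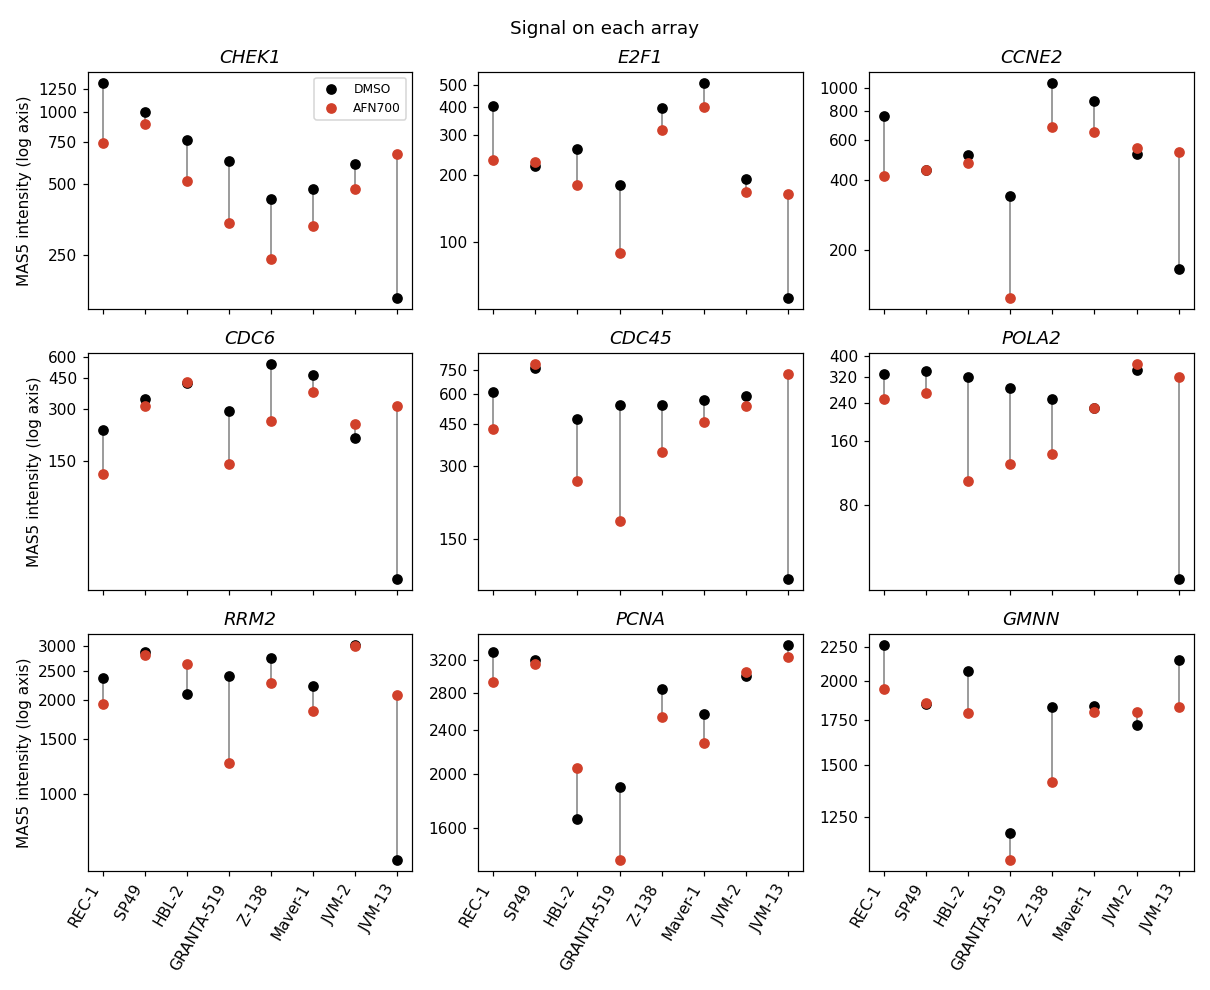
Intensity on each array for 9 of the genes (one panel each, log axis), by cell line, with DMSO in black, AFN700 in red and a grey line joining the arrays of 1 line. The JVM-13 DMSO array lies below all others for CDC6, CDC45, POLA2 and RRM2, and not for PCNA and GMNN.

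The E2F, cyclin E and checkpoint genes had the lowest group medians in REC-1 (-0.79), HBL-2 (-0.53), Z-138 (-0.57) and Maver-1 (-0.45), with all 5 lower in each. The median was -0.97 in GRANTA-519, again with 5 of 5 lower, 0.03 in SP49, 0.09 in JVM-2 and 1.49 in JVM-13. CHEK1, the checkpoint kinase that restrains replication under stress, read 1335.1 and 738.3 in REC-1, 1003.9 and 892.4 in SP49, 762.1 and 512.2 in HBL-2, 624.2 and 341.3 in GRANTA-519, 432.2 and 238.9 in Z-138, then 475.8 and 329.4 in Maver-1, 604.1 and 472.4 in JVM-2 and 164.0 and 665.7 in JVM-13, DMSO first. AFN700 was the lower array in every line but JVM-13. The log2 differences were -0.85, -0.17, -0.57, -0.86, -0.85, -0.53, -0.35 and 2.0 in that order.

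E2F1, the activator of the programme, read 402.7 and 231.6 in REC-1, 218.0 and 227.4 in SP49, 260.0 and 178.8 in HBL-2, 179.7 and 89.8 in GRANTA-519, 394.4 and 314.8 in Z-138, then 514.0 and 400.9 in Maver-1, 191.6 and 167.1 in JVM-2 and 56.3 and 163.6 in JVM-13. Its differences were -0.79, 0.06, -0.53, -0.97, -0.32, -0.36, -0.19 and 1.49. E2F2, its relative, was lower in JVM-13 too, where it was the lowest member at -0.32. It had -0.16 in REC-1, 0.19 in SP49, -0.52 in HBL-2, -0.51 in GRANTA-519, -0.19 in Z-138, then -0.50 in Maver-1 and 0.25 in JVM-2.

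The cyclin E genes followed E2F1 in sign in most lines. CCNE2 ran from 340.9 to 1059.4 with DMSO in 7 lines and read 165.9 in JVM-13, and its differences were -0.86 in REC-1, -0.01 in SP49, -0.10 in HBL-2, -1.44 in GRANTA-519, -0.63 in Z-138, then -0.45 in Maver-1, 0.09 in JVM-2 and 1.66 in JVM-13. CCNE1 ran from 606.6 to 1454.5 with DMSO, and its differences were -0.43, 0.03, -0.54, -1.17, -0.57, -0.29, 0.55 and 0.63 in the same order. CCNE1 lay furthest above 0 in JVM-2 and JVM-13.

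Leaving out JVM-13, the line whose DMSO array stood apart, moved most of the members' means below 0. Over the 7 other lines, 40 of 44 members had a mean below 0 and their median was -0.20, against 0.03 for all genes. The means of all genes thus lay more often above 0 than below it. These 7 lines included GRANTA-519 (member median -0.78) as well as SP49 (-0.003) and JVM-2 (0.02). A fit without both JVM-13 and GRANTA-519 was not run. The members below 0 were 11 of 11 in licensing, 7 of 7 in helicase activation, 5 of 8 among clamp, loader and binding proteins, 7 of 7 polymerases and primases, 1 of 2 in Okazaki fragment processing, 4 of 4 in nucleotide supply and 5 of 5 in the E2F group. Limma called 0 members and 10 of 12305 genes (0.0813%). At an unadjusted p under 0.05, 17 members were lower (5.78% of genes were) and 0 higher (9.24%). With arrays also centred, a setting chosen after seeing the data, the counts were 0 members called (0.065% of genes) and 19 lower at that p (6.56%).

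CHEK1 came nearest to the threshold, with a mean of -0.60 ± 0.11 over 7 lines (limma adjusted p = 0.0600, lower in 7 of 7) and -0.27 ± 0.27 over 8 (limma adjusted p = 0.792). POLE2 followed at -0.38 ± 0.10 (0.131), then CDC45 (0.166), E2F1 at -0.44 ± 0.14 (0.182), POLA2 (0.183), MCM10 at -0.41 ± 0.13 (0.205), CCNE2 at -0.48 ± 0.16 (0.206) and GINS1 at -0.24 ± 0.08 (0.215), each with its limma adjusted p. Without HBL-2 as well, CHEK1 fell by 0.60 on the log2 scale and was the 1 member called (limma adjusted p = 0.0377), among 37 genes (0.301%). In that fit 20 members were lower at an unadjusted p under 0.05 (8.18% of genes). The same lines with arrays centred, again chosen after seeing the data, gave CHEK1 alone (-0.59, limma adjusted p = 0.0297) among 71 genes (0.577%), and 22 members lower at the unadjusted p (7.46%). The call rests on 6 lines. It also rests on 1 probe set, since CHEK1 has 3 others above the filter. Of these, 2 were at 0.19 and 0.23 in HBL-2, and both were negative in the 6 remaining lines other than JVM-13, while the last, of low signal (mean 33.4), was negative in 3 of 8 lines.

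**Figure D4:**
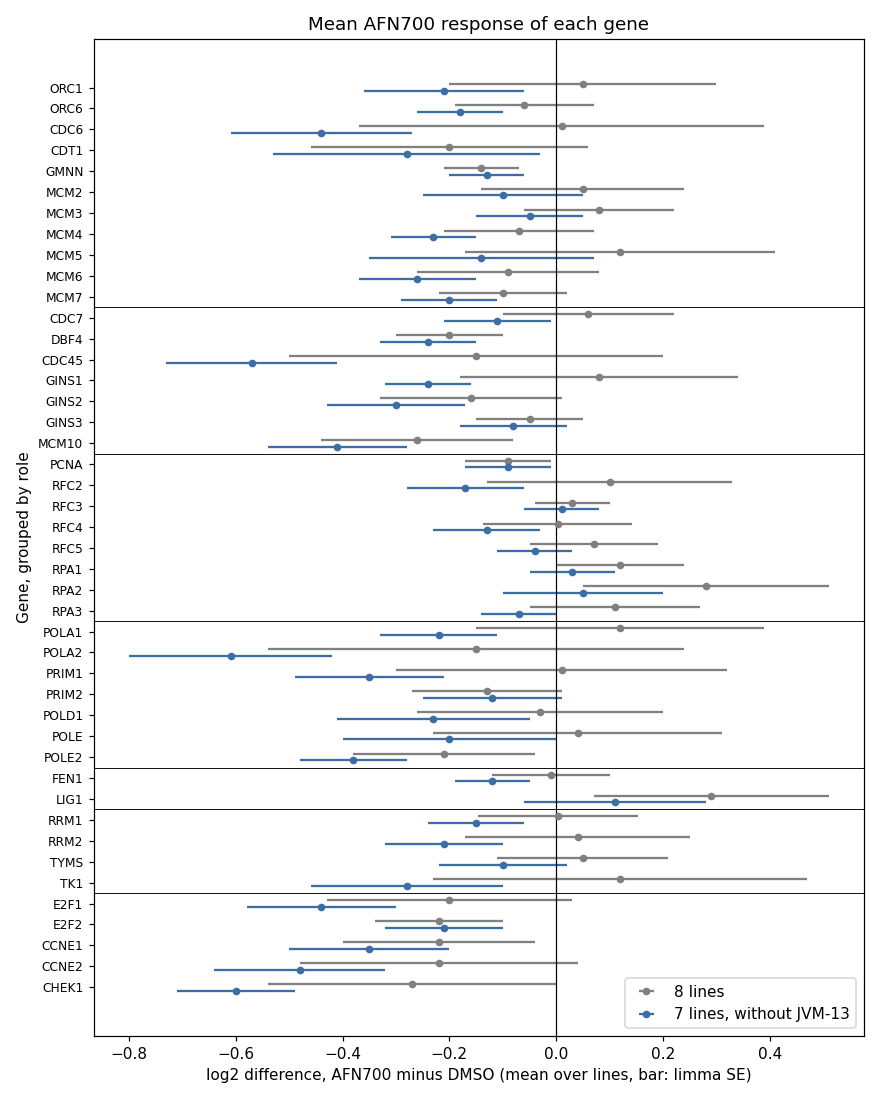
Mean log2 difference between AFN700 and DMSO for each of the 44 genes (rows, grouped by role), over 8 lines in grey and over the 7 lines without JVM-13 in blue, with the limma SE as bars. Without JVM-13, 40 of 44 means lie below 0, and CHEK1 (-0.60) and POLA2 (-0.61) lie lowest.

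Counted by line, CHEK1, POLE2 and PRIM1 were lower in all 7 lines other than JVM-13, 3 members against 2.01% of genes. In at least 6 of the 7, 15 members were lower (9.51% of genes) and 0 were higher (15.0%). With arrays centred, 23 were lower in at least 6 (10.5%). GRANTA-519 had the lowest difference of the 8 lines for 32 members (23.3% of genes), and for 21 with arrays centred (13.4%). Its AFN700 array lay below the other 7 AFN700 arrays for 28 members (14.9%), and for 25 centred (11.2%).

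In JVM-13 it was the DMSO array that lay outside the other lines. For 33 of 44 members it was below the other 7 DMSO arrays (32.4% of genes), and for 22 it was the lowest of all 16 arrays (26.3%). Centred, 21 members were below the other DMSO arrays (16.1%). The AFN700 array of JVM-13 was within the range of the 14 arrays of the other lines for 37 members, close to the share of all genes (80.2%). Against the median of the 7 other lines, the members' median log2 level in JVM-13 was -0.98 with DMSO and 0.24 with AFN700, or -0.33 and 0.28 centred. JVM-13 had the highest difference of the 8 lines for 36 members (39.2%). The members furthest below on the DMSO array were CDC6 at -3.34, POLA2 at -3.05, TK1 at -3.01 and PRIM1 at -2.86, while PCNA at 0.26, GINS3 at 0.26, GMNN at 0.23 and PRIM2 at 0.05 were not below. What set this array apart was not tested.

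The sensitivity label posed the second comparison. Limma called 0 of 44 members for a difference in response between the 2 sensitive and the 6 insensitive lines, and 0 genes (0.0%). At an unadjusted p under 0.05 there were 0 members against 182 genes (1.48%). The smallest p-values among members were those of DBF4 (-0.31 ± 0.23, sensitive minus insensitive, SE), E2F2 (0.31 ± 0.27) and RFC5 (-0.26 ± 0.27), each at a limma adjusted p of 1.0. REC-1 and SP49 themselves differed, with 38 and 22 members lower, and E2F1 at -0.79 and 0.06.

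DMSO levels also gave 0 of 44 members, and 1 of 12305 genes (0.00813%). At an unadjusted p under 0.05 there were 3 members (5.7% of genes). RFC3 read 1181.3 in REC-1 and 1593.5 in SP49 against 2111.9 to 2395.0 in the insensitive lines, a log2 difference of -0.72 ± 0.16 (SE, limma adjusted p = 0.425). It was the 1 member with both sensitive lines below all 6 insensitive lines (3.49% of genes). RPA1 read 1423.1 and 1493.4 against 575.7 to 1101.3 (0.90 ± 0.31, limma adjusted p = 0.826). CHEK1 read 1335.1 and 1003.9 against 164.0 to 762.1 (1.32 ± 0.53, limma adjusted p = 0.861), and its difference was 1.02 ± 0.29 without JVM-13 (limma adjusted p = 0.521). With CDC45 and ORC1 these made 4 members with both sensitive lines above all insensitive lines (5.68%).

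Lists of related genes, written with earlier results of these data known, were read beside the members. Of 51 other replication and S phase genes, 0 were called over 8 lines. In REC-1 42 were lower (45.1% of all genes were), in GRANTA-519 43 (55.0%) and in JVM-13 10 (38.7%). The medians there were -0.27, -0.50 and 1.0. CLSPN, the adaptor that couples the ATR kinase to CHEK1, had a mean of -0.56 ± 0.20 (limma adjusted p = 0.552), and TIPIN, which stabilises the fork with it, -0.45 ± 0.19 (0.595). In HBL-2 their differences were -1.54 and -1.58. Without JVM-13 but with HBL-2, the means were -0.71 ± 0.16 (limma adjusted p = 0.108) and -0.60 ± 0.14 (0.118). In that fit 14 of the 51 were lower at an unadjusted p under 0.05 (5.78% of all genes were). Of 26 regulators of E2F and RB, 0 were called, and CDC25A, the phosphatase that activates cyclin-dependent kinase 2, had -0.44 ± 0.16 (limma adjusted p = 0.552).

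Mitosis genes and replication genes differed most in their counts in Z-138 and JVM-2. Of 36 such genes, 36 were lower in GRANTA-519 (median -0.83), 27 in REC-1 (-0.17), 26 in Maver-1 (-0.13), 30 in JVM-2 (-0.13), 19 in HBL-2 (-0.01), 16 in SP49 (0.06) and 5 in JVM-13 (0.99). In Z-138, 6 of the 36 were lower and their median was 0.22, where 38 of 44 replication and E2F genes were lower with a median of -0.24. In JVM-2, 20 of 44 replication and E2F genes were lower with a median of 0.02. Each line's values come from 1 pair of arrays, so these contrasts have no test.

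A set of 7 NF-kB reporter genes, among them NFKBIA and TNFAIP3, was chosen in earlier work on these data because its genes responded, so its values are a description and no independent readout. For these 7 genes the median log2 difference was -1.31 in REC-1, -2.38 in SP49, -1.24 in HBL-2, -1.28 in GRANTA-519, -0.05 in Z-138, then 0.06 in Maver-1, -0.89 in JVM-2 and 1.0 in JVM-13. Both sets were lower in REC-1 and GRANTA-519 and higher in JVM-13, whose DMSO array stands apart. SP49, with the lowest reporter median, had a replication median of -0.0030, and Z-138, with a reporter median of -0.05, had 38 of 44 replication genes lower. HBL-2 and JVM-2, with reporter medians of -1.24 and -0.89, had replication medians of -0.01 and 0.02. Maver-1, with a reporter median of 0.06, had a replication median of -0.15.

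Profiles across the 44 genes were most alike in REC-1 and Z-138, with a Pearson correlation of their differences of 0.55 (0.15 over all genes). GRANTA-519 had 0.44 with Z-138 and with Maver-1, and -0.50 with JVM-13 (-0.30 over all genes). These correlations describe 44 genes that share arrays and are not independent. Within the members, the 19 genes with an E2F motif had a median of -0.88 in GRANTA-519 and the 20 without it -0.78. With and without the motif, the medians were 1.04 and 1.02 in JVM-13, -0.28 and -0.24 in REC-1, 0.04 and -0.01 in SP49, and 0.03 and -0.04 in JVM-2. They were -0.23 and -0.07 in Maver-1, -0.17 and -0.26 in Z-138, and 0.07 and -0.12 in HBL-2, so the lower group was not the same in every line. Other probe sets of 23 members, 32 above the filter, gave medians of -0.68 in GRANTA-519, -0.57 in HBL-2, -0.60 in Z-138, -0.25 in REC-1, -0.27 in Maver-1, -0.10 in SP49, 0.04 in JVM-2 and 1.15 in JVM-13. Of these 32 sets, 27 in GRANTA-519 and 28 in JVM-13 had the sign of the set used, against 17 in HBL-2 and SP49. The sign thus agreed less often in HBL-2 and SP49, and the members' values in SP49 lay between -0.35 and 0.51. Sizes differed between sets in JVM-13 too. RFC5 was at 0.86 there with the set used and at 3.15 and 2.52 with others.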

How the data were processed

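The deposited values are linear probe set intensity values that the authors computed by MAS5, as named per the labels' list of tools from the submitters' processing notes. Its version is not given in the sources used here. Each array has a trimmed mean of 150, leaving out 2% at each end. Arrays as deposited are the main setting. Values were taken to log2(intensity + 3.3), which understates changes of low genes. Probe sets with 1 gene were named through the platform annotation, and a gene was tested if at least 2 arrays had it above their 60th percentile over all probe sets. Tests used limma 3.58.1 in R 4.3.3 (lmFit, eBayes with trend) with the cell line as a block, since the labels give both arrays of a pair the same cell line, and Benjamini-Hochberg adjustment over 12305 genes at 0.05. The DMSO comparison used the 8 DMSO arrays. SE is limma's moderated standard error. The steps were tested on simulated data.

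The members and lists were chosen with earlier results of these data known. Values in every line are given for E2F1, CCNE1, CCNE2, PCNA, RRM2, CDC6, CDT1 and GMNN, for the member of largest absolute median difference in each role, for the 6 members of smallest p in the response and the 3 of smallest p in each other test. The line's lowest and highest members are also named, as are up to 3 genes of smallest p in other lists. Further members named were chosen after their values were seen. Alternatives were other pseudocounts, centring, quantile normalization, the mean of a gene's probe sets, other filters, no trend, a looser threshold, no line block and leaving out lines. Promoters came from RefSeq (GRCh38.p14), and figures were drawn with matplotlib 3.10.9.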

Additional observations from a re-analysis of the deposited data

Results flagged for a closer look

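With 42 groups of 8 values examined, for the named genes and the members' medians, 16 had a highest or lowest line farther from its neighbour than Dixon's critical value allows. Chance flags about 1 group in 20 where groups are independent. These groups share arrays, and part of the genes were named for their values, so the count is a description. JVM-13 accounted for 14 of the 16 and GRANTA-519 for the others. The members' median log2 difference was highest in JVM-13 at 1.07, their median DMSO log2 level was lowest in JVM-13 at 9.07, and their median AFN700 log2 level was lowest in GRANTA-519 at 9.0. Single genes with the highest log2 difference in JVM-13 were E2F1 (1.49), RRM2 (1.77), CDC6 (3.21), CDC45 (2.80), POLA2 (3.05), CHEK1 (2.0) and RFC5 (0.86). Genes with the lowest DMSO log2 level in JVM-13 were RRM2 (9.26), CDC6 (5.09), CDC45 (6.72), POLA2 (5.29) and LIG1 (5.95). The DMSO log2 level of GMNN was lowest in GRANTA-519 at 10.21. The median log2 signal of the JVM-13 DMSO array over all genes was 7.248, and its part in these values was not tested.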

How the results depend on the processing

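Over 8 lines the count of members called stayed at 0 under every alternative run except those without JVM-13 and HBL-2, where it was 1 (CHEK1, -0.60) as deposited and 1 (CHEK1, -0.59) centred. Centring combined with leaving out lines was chosen after seeing the data. With each line left out in turn the 3 tests called 0 to 0 members, and the members' median ran from -0.20 to 0.06 for the response, -0.31 to 0.11 for the difference by label and 0.13 to 0.43 for DMSO. Without the line as a pairing block the response again called 0 members and 0 genes. Centring moved the JVM-13 median from 1.07 to 0.40.

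Of 497 values of named genes under alternatives, 29 changed sign and 466 kept sign and side of the threshold. Sign changes were found for RRM2 (0.04), CDC6 (0.01), CDC45 (-0.15), POLA2 (-0.15), RFC5 (0.07), RFC3 (0.03) and RPA1 (0.12). Centred, RRM2 was -0.06, CDC6 -0.08, RFC5 -0.02 and RFC3 -0.07. With quantile normalization RRM2 was -0.02 and CDC6 -0.11, and a pseudocount of 16 gave CDC6 -0.02. With the mean of probe sets RFC3 was -0.06 and RPA1 -0.03. Without JVM-13 and HBL-2, RRM2 was -0.30, CDC6 -0.52, RFC5 -0.07 and RPA1 -0.02. Centred without JVM-13, RRM2 was -0.23, CDC6 -0.46, RFC5 -0.06 and RFC3 -0.01. Centred without both, RRM2 was -0.28, CDC6 -0.50, RFC5 -0.05 and RPA1 -0.0016. Leaving out each line gave -0.21 to 0.18 for RRM2 (-0.0026 without HBL-2), -0.44 to 0.17 for CDC6, -0.57 to 0.06 for CDC45, -0.61 to 0.06 for POLA2, -0.04 to 0.13 for RFC5 and -0.0017 to 0.06 for RFC3. Beyond leaving lines out, the cause was not tested. The deposited values used here carry no measure of background, so low signals such as CDC6 (30.7) and POLA2 (35.7) on the JVM-13 DMSO array have no limit attached.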
